A study of Mus musculus with 768 samples.

Results

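The 35 genes described here encode enzymes that make fatty acids and sphingolipids, and a pair of enzymes that break sphingolipids down. They were taken by symbol from a list drawn up with earlier results of these data known, matched by Ensembl identifier, and are 35 of the 25700 genes in the table. RNA was read in single Schwann cells, the glia that myelinate peripheral axons, from sciatic nerves of C57bl/6J mouse pups at postnatal day 5. All animals carried 3 transgenes. P0Cre, active in the Schwann cell lineage, switches on eYFP from the Cre-dependent reporter ReYFP, and βAct-DsRed labels every cell. Wells of 2 plates of 384 each received 1 eYFP-positive cell, and were processed with SmartSeq2, a full-length RNA protocol. Each plate held cells of 1 male and 1 female pup pooled and is 1 biological replicate, so that n = 2 plates for every comparison. No control genotype or other age enters these comparisons, and a cell that had not recombined the reporter could not be sampled.

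In all, 655 wells had at least 1500 detected genes and lay outside the 4 corners of their plate. These cells were placed in 4 states by genes that are not among the 35. Cells with at least 5 reads in each of 3 or more of 10 cell cycle genes were called cycling. Of the others, cells with Ncmap under 10 CPM (a gene's reads scaled to a fixed total of 1000000) were called immature, those with Ncmap but with Pmp22 under 30000 CPM intermediate, and the rest myelinating. Ncmap and Pmp22 are proteins of the myelin membrane. Plate 1 held 32 cycling, 106 immature, 79 intermediate and 108 myelinating cells, and plate 2 held 25, 122, 70 and 113. The median depth per cell was 598527 and 508410 reads in cycling cells of plates 1 and 2, 476354 and 418998 in immature, 524752 and 510832 in intermediate, and 819462 and 719230 in myelinating cells. Reads of the cells of 1 state and plate were summed, and the 8 sums held 13925435 to 98479212 reads.

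The labelled cell type was checked against marker lists, a well meeting a list with 5 or more reads in each of 3 or more of its genes. The Schwann cell list was met in 641 of 655 wells. A list for immature Schwann cells was met in 113 of 228 immature, 40 of 57 cycling, 9 of 149 intermediate and 2 of 221 myelinating cells. A list for myelinating Schwann cells, which holds Ncmap and Pmp22, was met in 203 of 228 immature and 50 of 57 cycling cells. It was met in every intermediate and myelinating cell. Adipocytes and hepatocytes are known for fatty acid synthesis, and both lists were met in 0 of 655 wells (upper limit 0.458%, from 3 counts of the total). All 6 adipocyte genes were at 0 reads in all 8 sums. The lists for fibroblast-like, endothelial, immune, pericyte or smooth muscle, muscle and neuronal cells were also met in 0 wells. Of the 6 fibroblast-like genes, 2 to 5 were at 0 in each sum, and their summed level lay between 1522 and 1783 CPM in immature, 502 and 747 CPM in intermediate, 132 and 157 CPM in myelinating and 1685 and 2502 CPM in cycling sums, nearly all of it the collagen Col3a1. From immature to myelinating sums that list had lower levels. The endothelial list went the other way, from 27.9 and 36.5 CPM in immature to 123 and 95.8 CPM in myelinating sums, with Pecam1, Cdh5 and Emcn at 0 reads in all 8 sums. The pericyte or smooth muscle list went from 15.7 and 9.53 CPM to 54.3 and 65.0 CPM, with Rgs5 and Myh11 at 0. The part of these lists in the results was not tested.

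Myelin is a membrane rich in lipid. Long fatty acids are built from acetyl-CoA by Acaca and Fasn, lengthened by the Elovl enzymes with their partners Hsd17b12, Hacd3 and Tecr, and given double bonds by Scd and Fads enzymes. Serine and palmitoyl-CoA are joined by Sptlc1 and Sptlc2, and Kdsr, the Cers enzymes and Degs1 turn the product into ceramide. Ugt8a adds galactose and Gal3st1 adds sulfate, giving galactosylceramide and sulfatide, glycolipids that are abundant in myelin and often carry a fatty acid that Fa2h has hydroxylated.

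The first question was how the levels of these genes differ between myelinating and immature cells. Of the 35 genes, 17 were higher and 1, Elovl5, was lower in myelinating cells (edgeR, adjusted p under 0.05 over 13892 genes tested). Over all genes tested, 2.58% were called higher and 2.51% lower. The median log2 change was 1.27 for the 35 genes and -0.04 for all genes. The summed level of the 35 genes was 4047 and 3937 CPM in immature cells of plates 1 and 2, 7009 and 6859 CPM in intermediate cells, and 11200 and 11163 CPM in myelinating cells. The plates of 1 state lay close together and the 3 states did not overlap. In the median immature cell 11 (plate 1) and 13 (plate 2) of the 35 genes had a read, against 16 and 17 in the median intermediate and 22 and 24 in the median myelinating cell. These counts were not adjusted for depth, and the median depth was higher in myelinating than in immature cells. Fitted changes are larger than the ratio of CPM values because the TMM scaling factors were 0.849 and 0.855 in myelinating but 1.12 and 1.11 in immature sums. Scaled by total reads alone, an alternative chosen after the data were seen, 15 of the 35 rose and 1 fell, with a median log2 change of 0.88 against -0.42 for all genes. That scaling left the calls over all genes at 250 higher and 689 lower, against 359 and 349 with TMM.

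Leaving out 1 of the 8 sums changed the number of calls among the 35 genes and also over all genes. Both were lowest when the immature sum of plate 2 was left out. The plate as a replicate block called 17 of the 35 and 673 of all genes, against 18 and 708 without it. DESeq2 called 20 of the 35, against 11% of all genes, and a fit of the 3 non-cycling states alone, added after the data were seen, called 20, against 8.56%. At an unadjusted p under 0.05 there were 23 in edgeR, against 16.3% of all genes.

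**Figure D1:**
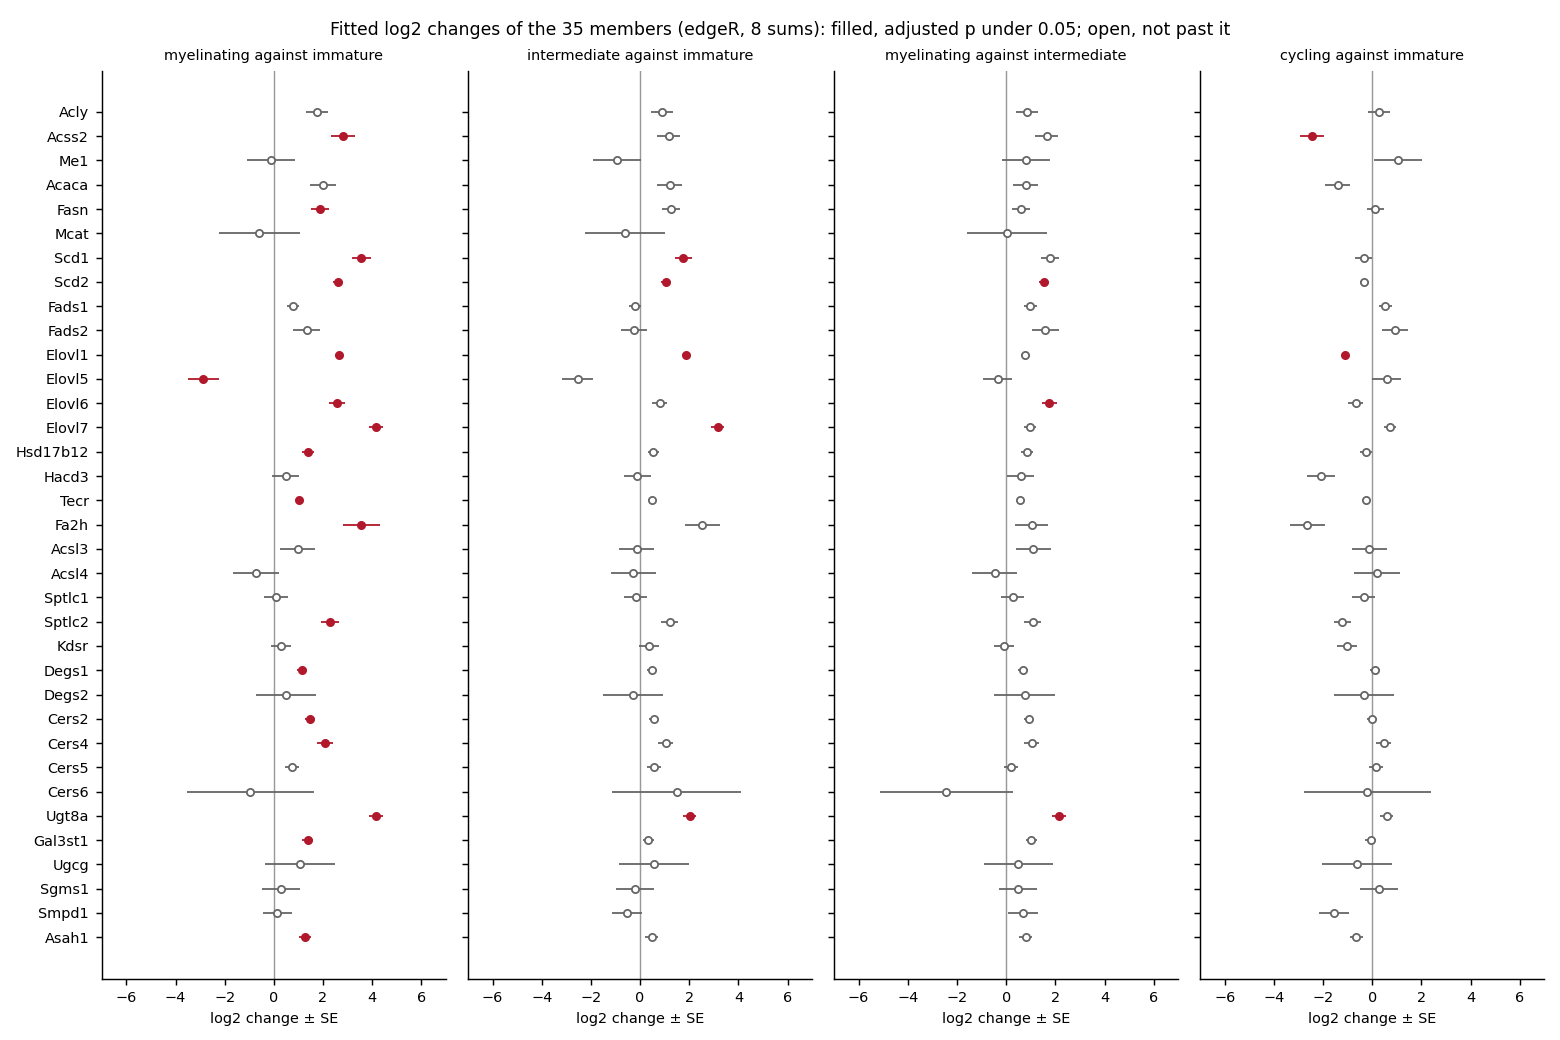
Fitted log2 changes (x axis, ± SE) of the 35 genes (y axis, ordered by role) in 4 comparisons of states, from edgeR on 8 sums. Filled red points passed an adjusted p of 0.05 and open points did not. Most filled points lie in the panel of myelinating against immature cells, 17 to the right of 0 and Elovl5 to the left. Mcat is not drawn for cycling cells, where it had 0 reads.

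Both steps along this path were then compared. From immature to intermediate cells, 5 of the 35 genes were higher and 0 lower, against 0.965% and 0.986% of all genes. The 5 were Elovl7, Ugt8a, Elovl1, Scd1 and Scd2. At an unadjusted p under 0.05 there were 17, against 10.9% of all genes. From intermediate to myelinating cells, 3 were higher and 0 lower, against 0.346% and 0.425% of all genes. The 3 were Ugt8a, Elovl6 and Scd2. Here 17 had an unadjusted p under 0.05, against 9.32% of all genes. The medians of the 35 genes were 0.54 for the first step and 0.79 for the second, against -0.03 and 0.00 for all genes. A test of the difference between both steps, added after the data were seen, called 0 of the 35 genes in edgeR, against 0.13% of all genes. At an unadjusted p under 0.05 it gave 3 of the 35, near the 7.26% of all genes, and DESeq2 called 2 of the 35, against 3.03% of all genes. For Elovl7 the second step minus the first was -2.17 ± 0.42 on the log2 scale (SE, edgeR adjusted p = 0.132), and for Elovl1 it was -1.12 ± 0.27 (edgeR adjusted p = 0.253). DESeq2 called both, with adjusted p = 0.00124 for Elovl7 and 0.00704 for Elovl1. The fit of the 3 non-cycling states alone called Elovl7, Elovl1 and Fa2h, against 0.697% of all genes.

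Counts of calls for the steps depended on the fit. DESeq2 called 11 of the 35 in the first step and 13 in the second, against 7.06% and 4.82% of all genes. The fit without cycling cells called 8 and 10, against 3.68% and 1.85%. To the edgeR calls of the first step DESeq2 added Cers4, Fa2h, Fasn, Sptlc2 and Tecr as higher and Elovl5 as lower. In the second it added Acss2, Cers2, Cers4, Elovl1, Elovl7, Fads1, Gal3st1, Hsd17b12, Scd1 and Tecr, all higher. Leaving out the cycling sum of plate 1 or of plate 2 raised the counts of calls in both steps, among the 35 genes and also over all genes. Without the immature sum of plate 1, or without the intermediate sum of plate 2, both counts fell in the first step.

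**Figure D2:**
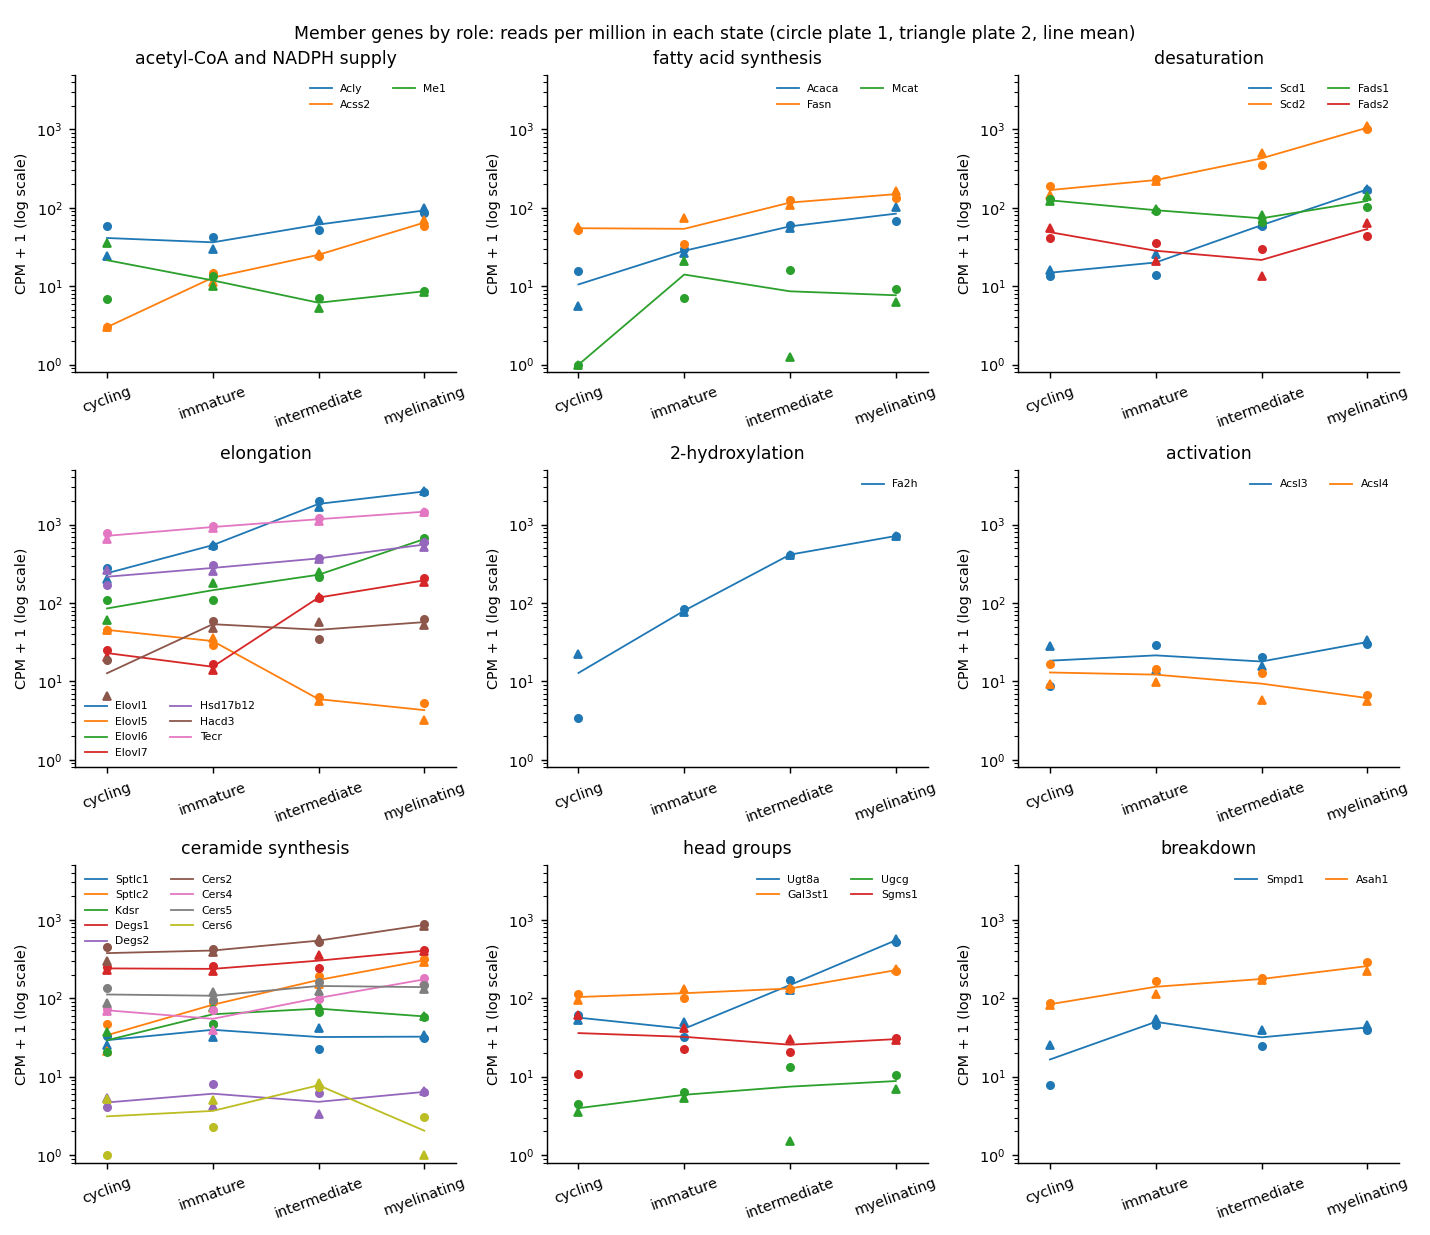
CPM plus 1 (y axis, log scale) of the 35 genes in the 4 states (x axis), 1 panel per role. Circles are plate 1, triangles plate 2 and lines join the plate means. Elovl1, Elovl7, Fa2h and Ugt8a climb steeply from immature to myelinating cells, Elovl5 descends, and low genes such as Mcat, Cers6 and Ugcg scatter between plates.

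Promoter windows were read for the 29 of the 35 genes with an entry among the RefSeq promoters (GRCm38.p6). Each window holds the 250 bases before the annotated start. They were searched on both strands for TCACNCCAC (a sterol element), CACGTG (an E-box), CCAAT (the NF-Y box), GCGTGGG (EGR) and ACAAAG (SOX). TCACNCCAC was in 0 of the 29 genes and in 1.05% of all 32851 windows. CCAAT was in 16 of the 29 genes, or 45.9% of their 37 windows, against 33.9% of all windows. CACGTG was in 5 genes (13.5% of windows, 6.02% of all), GCGTGGG in 4 (10.8%, 4.30% of all) and ACAAAG in 4 (10.8%, 16.5% of all). Shown are the windows of Fasn and Sptlc2, both with 3 CCAAT matches (Tecr also holds 3), of Elovl1, the most abundant gene that rose, of Elovl5, the gene that fell, and of Elovl7, one of the steepest rises, which holds no match. Capitals mark the matches, each line reads 5′ to 3′ on the strand of the gene, and a match is only a match of letters.
Fasn: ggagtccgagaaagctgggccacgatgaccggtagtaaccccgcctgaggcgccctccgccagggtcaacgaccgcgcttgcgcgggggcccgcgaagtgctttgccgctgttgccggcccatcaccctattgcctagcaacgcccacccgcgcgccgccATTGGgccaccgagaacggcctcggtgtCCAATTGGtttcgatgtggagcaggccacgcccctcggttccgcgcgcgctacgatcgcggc
Sptlc2: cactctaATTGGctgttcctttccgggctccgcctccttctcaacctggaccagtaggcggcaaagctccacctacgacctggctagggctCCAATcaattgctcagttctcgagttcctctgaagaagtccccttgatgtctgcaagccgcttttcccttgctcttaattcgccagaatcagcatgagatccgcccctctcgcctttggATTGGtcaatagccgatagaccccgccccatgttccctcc
Elovl1: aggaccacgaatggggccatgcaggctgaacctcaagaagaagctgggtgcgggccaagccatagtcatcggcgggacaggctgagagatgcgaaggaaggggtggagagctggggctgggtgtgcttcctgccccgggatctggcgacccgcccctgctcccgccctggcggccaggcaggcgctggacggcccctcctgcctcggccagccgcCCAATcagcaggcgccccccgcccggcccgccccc
Elovl5: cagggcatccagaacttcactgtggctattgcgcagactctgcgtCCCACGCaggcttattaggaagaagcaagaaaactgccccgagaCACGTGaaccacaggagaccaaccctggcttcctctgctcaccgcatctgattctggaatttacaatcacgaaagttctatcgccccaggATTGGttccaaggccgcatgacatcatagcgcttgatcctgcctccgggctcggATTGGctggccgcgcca
Elovl7: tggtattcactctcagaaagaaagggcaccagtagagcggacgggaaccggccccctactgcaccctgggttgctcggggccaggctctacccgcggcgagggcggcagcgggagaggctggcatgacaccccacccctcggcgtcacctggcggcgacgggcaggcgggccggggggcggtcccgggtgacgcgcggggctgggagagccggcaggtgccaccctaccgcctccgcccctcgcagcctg
The Fasn window is chr11:120824548-120824797 on the minus strand, with CCAAT matches that begin 90, 62 and 59 bases before the start. The Sptlc2 window is chr12:87388356-87388605 (minus), with CCAAT at 243, 159 and 40 bases. The Elovl1 window shown is chr4:118427843-118428092 (plus), with CCAAT 35 bases before the start. Another Elovl1 window, chr4:118429451-118429700 (plus), holds no match and is not shown. The Elovl5 window is chr9:77917115-77917364 (plus), with GCGTGGG at 205, CACGTG at 161 and CCAAT at 71 and 17 bases. The Elovl7 window is chr13:108214154-108214403 (plus).

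Supply of acetyl-CoA came first in the order of roles, and of its 3 genes 1 rose in myelinating cells. Acly (chromosome 11, 100476353 to 100528000, minus strand), which cleaves citrate to cytosolic acetyl-CoA, had the highest level per length of the 3. In plates 1 and 2 it measured 41.8 and 28.8 CPM in immature, 51.4 and 68.9 in intermediate, 84.2 and 99.0 in myelinating, and 57.0 and 23.4 in cycling cells. Both myelinating values lay above both immature ones, but the change of 1.76 ± 0.45 (log2, SE) did not pass the threshold (edgeR adjusted p = 0.0683), though it did under 5 alternatives, DESeq2 among them (0.00330). Acss2 (chromosome 2, 155517948 to 155585724), which makes acetyl-CoA from acetate, measured 13.6 and 10.2 CPM in immature, 23.6 and 24.7 in intermediate, 58.0 and 69.7 in myelinating, and 2.01 in both plates in cycling cells. The states did not overlap. Acss2 was 7.01-fold higher in myelinating than in immature cells (log2 2.81 ± 0.49, edgeR adjusted p = 0.0112) and lower in cycling than in immature cells (log2 -2.46 ± 0.49, edgeR adjusted p = 0.0393). Each of these calls was lost when the immature or the myelinating sum of either plate was left out, with adjusted p from 0.0643 to 0.177, and that in cycling cells was lost also with the plate as a replicate block (adjusted p = 0.0684), without the intermediate sum of either plate (0.0580 and 0.0591), with a Pmp22 border of 20000 CPM (0.0628) or with thinned cells (0.0554), 9 alternatives in all. Exons of Acss2 overlap those of Ggt7, Gss and Acss2os on the other strand, and this protocol does not mark strand. Me1, which supplies NADPH, lay between 4.25 and 35.1 CPM and passed no comparison.

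Fatty acid synthesis itself holds 3 genes, of which 1 rose. Fasn (chromosome 11, 120805846 to 120824547, minus strand), the synthase that builds palmitate, measured 33.5 and 72.4 CPM in immature, 124 and 107 in intermediate, 133 and 164 in myelinating, and 51.5 and 56.4 in cycling cells. Its immature plates differed by more than its intermediate and myelinating means did, and no immature value reached an intermediate one. Fasn was 3.65-fold higher in myelinating than in immature cells (log2 1.87 ± 0.37, edgeR adjusted p = 0.0220). The call was lost without the immature sum of plate 1 (log2 1.42, adjusted p = 0.0905), without the myelinating sum of plate 2 (1.71, 0.0924) and with a minimum of 1000 genes per cell (1.09, 0.0741). Acaca, the carboxylase that makes malonyl-CoA, went from 29.0 and 25.6 CPM in immature to 66.5 and 100.01 CPM in myelinating cells, a change of 1.99 ± 0.52 that missed the threshold (edgeR adjusted p = 0.0740) but passed under 5 alternatives, DESeq2 among them (0.00332). Mcat, the mitochondrial malonyl transferase, had 0 reads in cycling cells and between 0.264 and 20.1 CPM elsewhere. With a floor of 3 reads over both cycling sums, the lower bound on the fold between immature and cycling cells was 152. That floor allows for counting of reads but not for differences between cells, and reads of 1 molecule were not told apart. Its reads came from few cells, with an upper quartile of 0 CPM in every state and highest immature cells of 343 and 567 CPM. The change did not pass the threshold (edgeR adjusted p = 0.105), but passed it under 5 alternatives, DESeq2 among them (0.000132).

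Desaturation has 4 genes, and all 4 had positive changes from immature to myelinating cells. Scd2 and Scd1, stearoyl-CoA desaturases that make monounsaturated fatty acids, passed the threshold in edgeR. Fads1 and Fads2, which act on polyunsaturated fatty acids, did not, and the difference between the Scd and Fads genes was not tested. Scd2 (chromosome 19, 44293674 to 44306864) measured 230.0 and 219.6 CPM in immature, 352 and 499.9 in intermediate, 1000.1 and 1098 in myelinating, and 190.2 and 145 in cycling cells. The 3 non-cycling states did not overlap. It rose by a log2 of 1.06 ± 0.20 in the first step (edgeR adjusted p = 0.0326), 1.55 ± 0.20 in the second (0.00932) and 2.61 ± 0.21 over both (0.000195), or 6.09-fold. Scd1 (chromosome 19, 44394455 to 44407879, minus strand) measured 13.1 and 25.1 CPM in immature, 56.9 and 61.2 in intermediate, 169.0 and 172 in myelinating, and 12.5 and 15.3 in cycling cells. It rose 11.7-fold over both steps (log2 3.54 ± 0.39, edgeR adjusted p = 0.000974), and by 1.77 ± 0.36 in the first (0.0478). The second step of Scd1 was 1.78 ± 0.36 (edgeR adjusted p = 0.0828), and 8 alternatives called it, DESeq2 among them (0.000429). First-step calls of both genes were the least firm. Scd1 lost its call without the immature sum of plate 1 (adjusted p = 0.235), either intermediate sum (0.123 and 0.141) or either myelinating sum (0.0869 and 0.0894), and Scd2 without either immature sum (0.138 and 0.195) or the intermediate sum of plate 2 (0.161). With a Pmp22 border of 20000 CPM neither passed (0.337 for Scd1 and 0.257 for Scd2), nor did either with total-read scaling (0.0715 and 0.0727) or without plate columns 8 and 16 (0.0554 and 0.0567). An Ncmap border of 5 CPM also ended the call of Scd1 (0.0630). Fads1 changed by 0.78 ± 0.26 from immature to myelinating cells (edgeR adjusted p = 0.153) and Fads2 by 1.33 ± 0.54 (0.263). Thinned cells called Fads1 in that comparison (0.0368) and in the second step (0.0432), where DESeq2 called it too (0.0190).

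Elongation was the role with the most calls, 5 of 7 genes higher and Elovl5 lower in myelinating cells. Elovl1 (chromosome 4, 118428093 to 118432953), which makes very long saturated and monounsaturated chains, measured 537 and 555 CPM in immature, 1972 and 1694 in intermediate, 2637 and 2642 in myelinating, and 274 and 203 in cycling cells. All 4 states were separate. It rose by 1.89 ± 0.16 in the first step (log2, SE, edgeR adjusted p = 0.000791) and 2.66 ± 0.17 over both (5.6e-05), or 6.31-fold. The second step did not pass in edgeR, but 6 alternatives called it higher, DESeq2 among them (log2 0.79, adjusted p = 0.000174). Elovl1 was lower in cycling than in immature cells by 1.09 ± 0.16 (edgeR adjusted p = 0.0129). That last call ended at the threshold without the immature sum of plate 2 (adjusted p = 0.05004). Exons of Elovl1 overlap those of Cdc20, a mitosis gene on the other strand, and how reads in the overlap were counted is not given in the sources used here. Exons of Me1, Mcat, Elovl6, Degs2, Cers2, Cers4 and Sgms1 also overlap those of genes on the other strand. Exons of Scd2 and Acsl3 overlap those of Mir5114 and Utp14b on the same strand. Elovl7 (chromosome 13, 108214404 to 108285683), also an elongase of very long chains, measured 15.8 and 12.98 CPM in immature, 113 and 119 in intermediate, 205 and 182 in myelinating, and 24.3 and 19.7 in cycling cells. Its first step alone was 8.90-fold (log2 3.15 ± 0.27, edgeR adjusted p = 0.000791), and over both steps it rose 17.5-fold (4.13 ± 0.28, 7.9e-05). Elovl7 kept both calls under every alternative run.

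Elovl6 (chromosome 3, 129532355 to 129638495) lengthens palmitate to stearate. It measured 109 and 180.1 CPM in immature, 212 and 245 in intermediate, 670.1 and 634 in myelinating, and 108 and 60.1 in cycling cells. The myelinating plates stood well above all others. Elovl6 rose 5.88-fold over both steps (log2 2.55 ± 0.32, edgeR adjusted p = 0.00208). Its second step was 1.76 ± 0.31 (edgeR adjusted p = 0.0472), a call that was lost without either intermediate sum (0.193 and 0.139) or either myelinating sum (0.0904 and 0.0698), and also with the plate as a replicate block (0.0792), a Pmp22 border of 45000 CPM (0.134), total-read scaling (0.0720), a minimum of 1000 genes (0.0527), an Ncmap border of 30 CPM (0.0509) or without plate columns 8 and 16 (0.0543), 10 of 22 alternatives in all. Elovl5 (chromosome 9, 77917364 to 77984519), an elongase of polyunsaturated chains, ran the other way, with 28.2 and 35.3 CPM in immature, 5.29 and 4.61 in intermediate, 4.39 and 2.24 in myelinating, and 44.0 and 44.9 in cycling cells. Its fall from immature to intermediate cells did not pass in edgeR. DESeq2 (log2 -2.53, adjusted p = 0.000878) and edgeR on thinned cells (-2.83, adjusted p = 0.0414) called that fall. Over both steps Elovl5 was 7.33-fold lower in myelinating than in immature cells (log2 -2.87 ± 0.63, edgeR adjusted p = 0.0330). Elovl5 lost this call without the immature or the myelinating sum of either plate (adjusted p from 0.107 to 0.313), with the plate as a replicate block (0.0557) and with a Pmp22 border of 20000 CPM (0.0512). Tecr (chromosome 8, 83571698 to 83607971, minus strand), the reductase of the last elongation step, was the most abundant per length in immature cells. It measured 968 and 892 CPM in immature, 1223 and 1116 in intermediate, 1461 and 1454 in myelinating, and 788 and 648 in cycling cells, a rise of 2.04-fold over both steps (log2 1.03 ± 0.14, edgeR adjusted p = 0.00311). Hsd17b12, the ketoreductase, rose by 1.38 ± 0.24 (edgeR adjusted p = 0.0118), lost without the immature sum of plate 2 (0.0919), while the dehydratase Hacd3 changed by 0.47 ± 0.54 (0.809).

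Fa2h (chromosome 8, 111345135 to 111393824, minus strand), the hydroxylase of sphingolipid fatty acids, measured 82.7 and 75.2 CPM in immature, 412 and 414 in intermediate, 715 and 713 in myelinating, and 2.41 and 21.3 in cycling cells. Plates of 1 state were nearly equal except in cycling cells, and no states overlapped. Fa2h was 11.8-fold higher in myelinating than in immature cells (log2 3.56 ± 0.74, edgeR adjusted p = 0.0265). The first step was 2.53 ± 0.71 and missed the threshold (edgeR adjusted p = 0.156), and so did the second, 1.04 ± 0.68 (0.715). Of the alternatives, 6 called the first step, DESeq2 among them (0.0309), and 3 the second, those without a cycling sum or without cycling cells (0.00393 to 0.00728). Without the immature sum of plate 1 or of plate 2 the call over both steps was lost (0.119 and 0.149). The standard error of Fa2h was larger than that of Ugt8a, and its cycling plates lay far apart. Neither acyl-CoA ligase passed a comparison. Acsl3 (chromosome 1, 78657825 to 78707743), which activates long fatty acids, measured 27.9 and 13.1 CPM in immature, 19.2 and 14.7 in intermediate, 29.0 and 32.6 in myelinating, and 7.80 and 27.0 in cycling cells, with a change of 0.97 ± 0.72 (edgeR adjusted p = 0.609). Both myelinating values of Acsl3 lay above all others, and the other 3 states overlapped. Acsl4 lay between 4.60 and 15.7 CPM.

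Ceramide synthesis had 9 genes, of which 4 rose from immature to myelinating cells and 0 passed in either step in edgeR. At an unadjusted p under 0.05 there were 4 in each step, against 10.9% and 9.32% of all genes. Cers2 (chromosome 3, 95314791 to 95323599), the ceramide synthase of very long chains, measured 424 and 385 CPM in immature, 522 and 559.8 in intermediate, 886 and 833 in myelinating, and 453 and 296 in cycling cells. Myelinating plates were above all others, and immature and cycling plates overlapped. Cers2 rose 2.77-fold (log2 1.47 ± 0.20, edgeR adjusted p = 0.00311). Its first step was called by 3 alternatives and its second by 6, DESeq2 among them for the second (0.000421). Sptlc2, a catalytic subunit of the enzyme that starts the pathway, rose from 89.6 and 73.5 to 314 and 292 CPM (2.28 ± 0.36, edgeR adjusted p = 0.00743), whereas its partner Sptlc1 measured 45.7 and 31.4 CPM in immature and 30.2 and 32.5 CPM in myelinating cells (0.08 ± 0.48, 0.977). Sptlc2 was called by 6 alternatives in the first step, DESeq2 among them (0.0163), and by 5 in the second, and DESeq2 called Cers4 in both (0.0376 and 0.0486). Cers4 rose by 2.07 ± 0.31 (edgeR adjusted p = 0.00555) and Degs1, the desaturase that completes ceramide, by 1.16 ± 0.21 (0.0137). Sptlc2 lost its call without the immature sum of plate 2 (0.0589), and Degs1 without either immature sum (0.0527 and 0.111), without the myelinating sum of plate 1 (0.0563) and with total-read scaling (0.0719). Cers5 changed by 0.75 ± 0.28 (edgeR adjusted p = 0.225) and Kdsr by 0.29 ± 0.41 (0.864). Degs2 lay between 2.31 and 6.95 CPM and Cers6 between 0 and 7.21 CPM, with 0 reads of Cers6 in cycling cells of plate 1 and myelinating cells of plate 2.

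Of the 4 genes that add head groups, those of galactolipids rose, and Ugt8a had the largest fitted change from immature to myelinating cells, within its SE of that of Elovl7. Ugt8a (chromosome 3, 125865271 to 125938619, minus strand) measured 31.0 and 48.7 CPM in immature, 168 and 125 in intermediate, 525 and 569 in myelinating, and 59.4 and 51.6 in cycling cells. The non-cycling states did not overlap. It rose by 2.02 ± 0.27 in the first step (log2, SE, edgeR adjusted p = 0.00713) and 2.14 ± 0.27 in the second (0.00898). Over both steps the rise was 17.9-fold (4.16 ± 0.29, edgeR adjusted p = 9.1e-05). With a Pmp22 border of 20000 CPM the steps had adjusted p of 0.0890 and 0.0641, and no other alternative ended a call of Ugt8a. Gal3st1 (chromosome 11, 3983636 to 3999326) had the highest mean level per length of this role over the states. It measured 98.2 and 132 CPM in immature, 131 and 133 in intermediate, 222 and 232 in myelinating, and 112 and 92.9 in cycling cells, so that only the myelinating plates stood apart. Gal3st1 rose 2.58-fold over both steps (log2 1.36 ± 0.23, edgeR adjusted p = 0.00989), and its call was lost without the immature sum of plate 1 (0.0905) or the myelinating sum of plate 2 (0.0619). Ugcg, which adds glucose instead, lay between 0.528 and 12.4 CPM, and Sgms1, a sphingomyelin synthase, between 9.81 and 60.0 CPM. Neither passed a comparison, with changes from immature to myelinating cells of 1.06 ± 1.43 (edgeR adjusted p = 0.853) and 0.28 ± 0.77 (0.942). The difference between Ugt8a and Ugcg in response was not tested.

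Asah1 (chromosome 8, 41340197 to 41374773, minus strand), the lysosomal ceramidase, measured 167 and 111 CPM in immature, 181 and 168 in intermediate, 289 and 222 in myelinating, and 84.9 and 80.5 in cycling cells. It rose 2.40-fold over both steps (log2 1.27 ± 0.26, edgeR adjusted p = 0.0229), lost without the immature sum of plate 2 (0.168), without the myelinating sum of plate 1 (0.174) and with total-read scaling (0.0807). The sphingomyelinase Smpd1 measured 45.0 and 52.8 CPM in immature and 38.8 and 44.0 CPM in myelinating cells (0.14 ± 0.60, edgeR adjusted p = 0.967). With total-read scaling the sign of this change turned for 4 genes that passed no test, Smpd1, Kdsr, Sptlc1 and Sgms1.

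Levels were compared between genes as RPKM (reads per kb of exon at the same scaling), which takes account of length. In myelinating cells Elovl1 was highest at 968 ± 1.28 (SD, n = 2), above Tecr at 665 ± 2.17. Fa2h at 237 ± 0.382, Cers2 at 234 ± 10.1 and Hsd17b12 at 231 ± 25.8 followed and did not differ beyond their spread. Next were Scd2 at 192 ± 12.7, Degs1 at 155 ± 2.48, Ugt8a at 121 ± 6.96, Gal3st1 at 111 ± 3.55 and Elovl6 at 101 ± 3.94. In immature cells the order began with Tecr at 425 ± 24.5, Elovl1 at 200.2 ± 4.72, Hsd17b12 at 116 ± 15.1 and Cers2 at 110.0 ± 7.58, the last pair not differing beyond their spread. Fa2h stood at 26.2 ± 1.76 there and Scd2 at 41.1 ± 1.35.

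**Figure D3:**
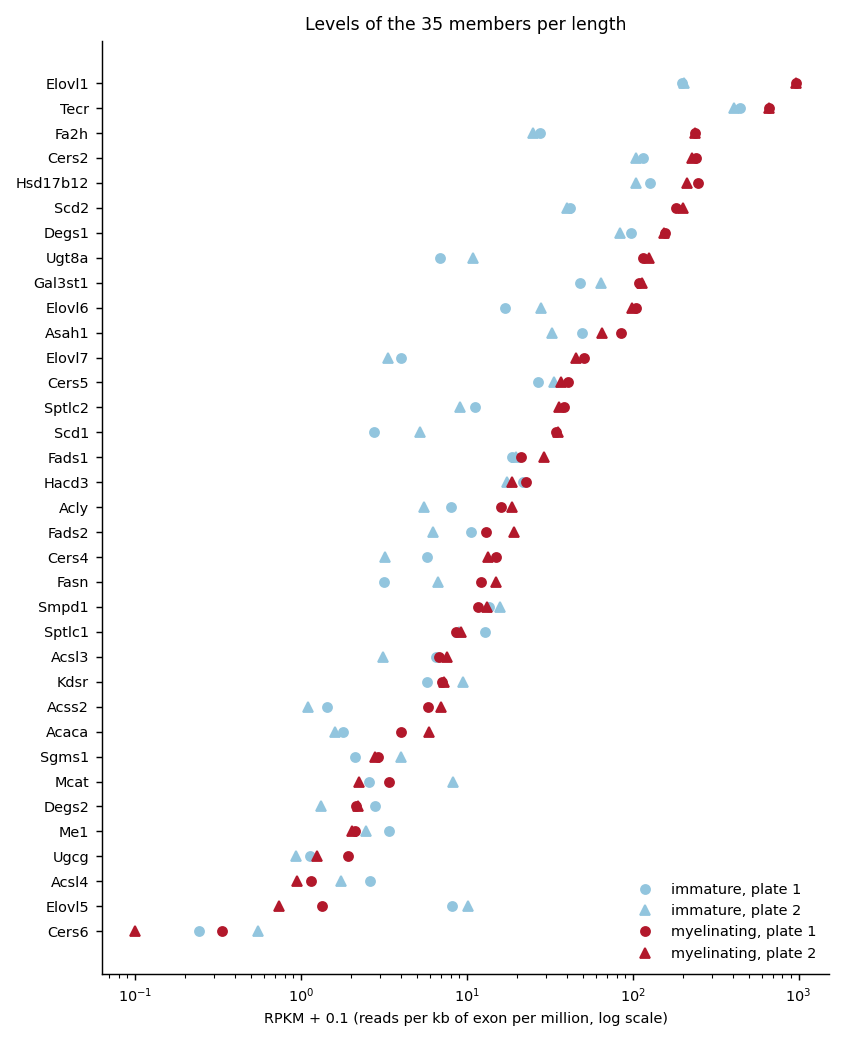
RPKM plus 0.1 (x axis, log scale), of the 35 genes (y axis, ordered by their level in myelinating cells), with immature cells in blue and myelinating cells in red. Circles are plate 1 and triangles plate 2. Elovl1 and Tecr lead in myelinating cells at 968 and 665, and the gap between blue and red is widest for Ugt8a and Elovl7.

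Shares of cells with a read depend on depth, so each cell was also thinned to 100000 reads, and shallower cells, 22 of 655, were left out. After thinning, Fa2h was read in 35.6% (95% interval 26.4 to 45.8) and 38.5% (29.6 to 47.9) of immature cells in plates 1 and 2, in 94.4% (86.4 to 98.5) and 87.0% (76.7 to 93.9) of intermediate cells, and in every myelinating cell of both plates (lower bounds 96.6% and 96.8%). Unthinned, the shares of Fa2h were 38.7% and 41.0% in immature and 94.9% and 92.9% in intermediate cells. For Ugt8a the thinned shares were 19.8% (12.5 to 28.9) and 23.1% (15.8 to 31.8) in immature, 58.3% (46.1 to 69.8) and 55.1% (42.6 to 67.1) in intermediate, and 96.2% (90.6 to 99.0) and 99.1% (95.2 to 99.98) in myelinating cells. Most intermediate cells thus had a read of Fa2h, while Ugt8a was read in a smaller share of the same cells. The unthinned shares of Ugt8a were 28.3% and 27.0%, 69.6% and 64.3%, and 98.1% and 99.1%.

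Elovl7 was read in 7.92% and 6.84% of thinned immature cells, 44.4% and 53.6% of intermediate and 64.2% and 65.5% of myelinating cells. Scd1 was read in 10.9% and 14.5%, 25% and 26.1%, and 64.2% and 69.9%. Elovl5 had its largest shares in cycling cells, with 54.8% (36.0 to 72.7) and 50% (29.1 to 70.9), against 19.8% and 20.5% of immature and 8.49% and 7.96% of myelinating cells. Elovl1 was read in 77.2% and 71.8% of immature and in 99.1% of myelinating cells in plate 1 and in every one in plate 2. The median share over the 35 genes was 24.7% ± 1.33 (SD, n = 2 plates) in immature and 65.7% ± 2.20 in myelinating cells after thinning, and 26.7% ± 0.448 and 71.0% ± 4.77 before. These intervals cover counting error only, and the cells of 1 plate share their animals.

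**Figure D4:**
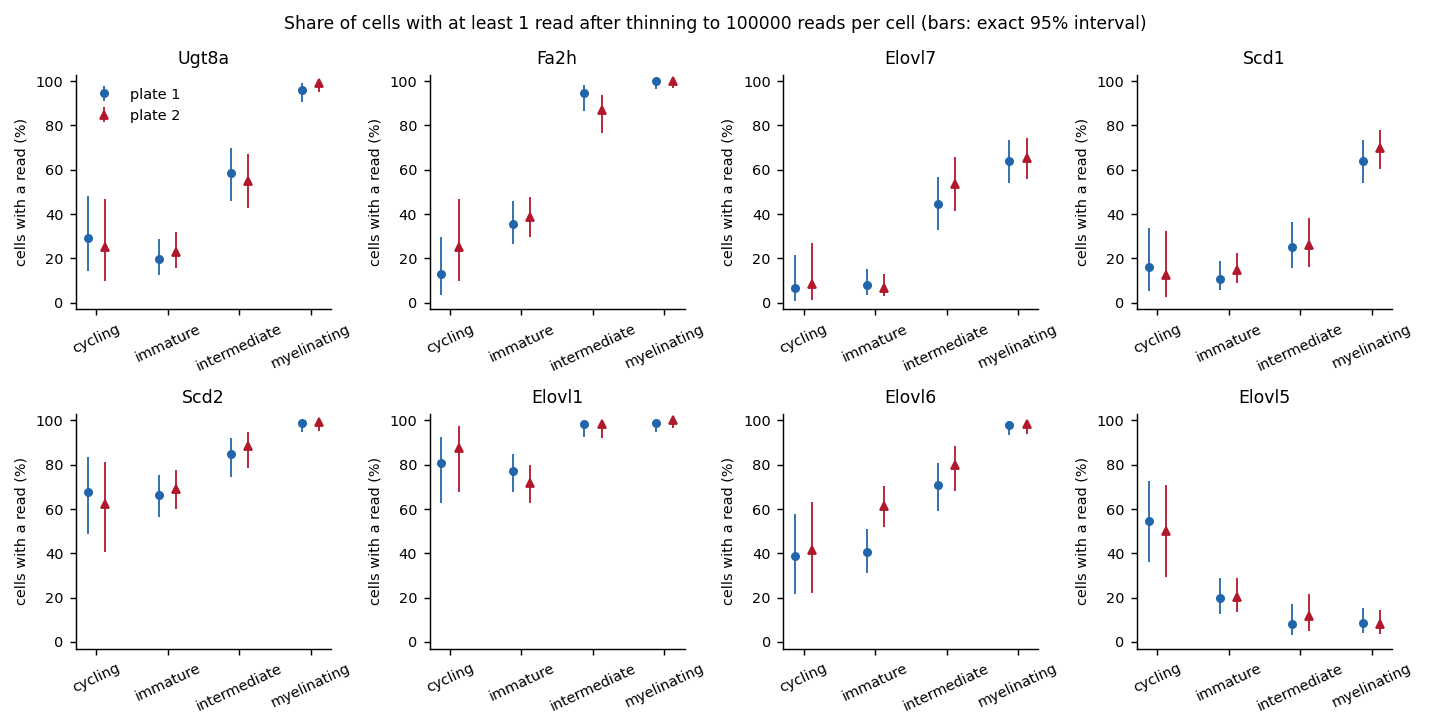
Share of cells (y axis, %) with at least 1 read of each of 8 genes after thinning to 100000 reads, by state (x axis) and plate (blue circles plate 1, red triangles plate 2), with exact 95% intervals. Fa2h is near its ceiling in intermediate cells at 94.4% and 87.0%, Ugt8a and Scd1 reach their highest shares in myelinating cells, and Elovl5 has its highest in cycling cells.

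Levels varied among cells of 1 state. The median myelinating cell had 464 and 558 CPM of Ugt8a in plates 1 and 2, with quartiles of 193 to 718 and 291 to 785, and the highest cell of plate 1 had 4926 CPM. In intermediate cells the median of Ugt8a was 20.3 and 17.3 CPM with upper quartiles of 238 and 205, so that the sums of this state were carried by part of the cells. Fa2h was more even, with medians of 310.4 and 316 CPM in intermediate and 627 and 655 CPM in myelinating cells. Its immature median was 0 in both plates, with highest cells of 800.4 and 2349.5 CPM. The median for Scd1 was 0 in intermediate and 93.1 and 106 CPM in myelinating cells. Elovl5 had a median of 0 in immature cells although its highest cells reached 793 and 679 CPM.

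**Figure D5:**
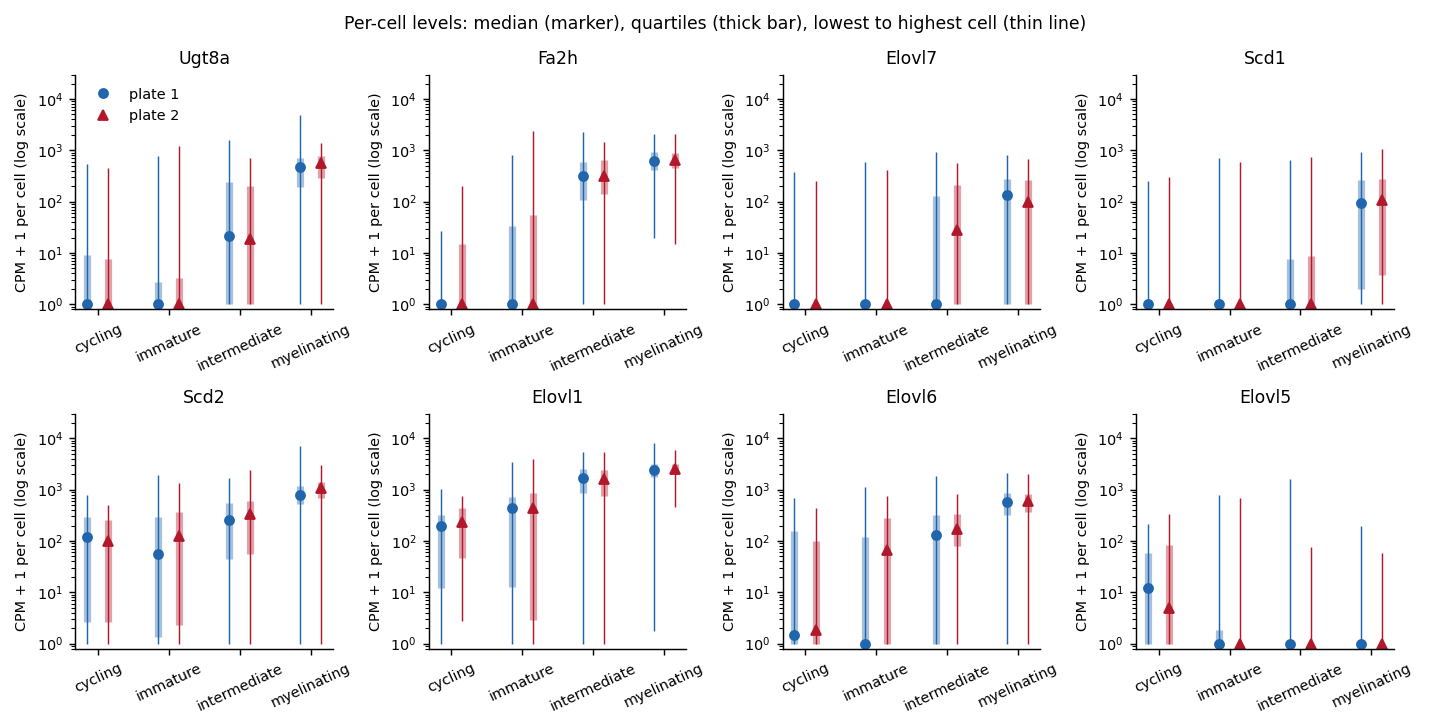
CPM plus 1 in single cells (y axis, log scale) of the same 8 genes by state (x axis) and plate (blue circles plate 1, red triangles plate 2). Markers are medians, thick bars quartiles and thin lines run from the lowest to the highest cell. Medians of Ugt8a move from 0 in immature cells to 464 and 558 in myelinating cells, and thin lines overlap between all states.

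Cycling cells were compared with immature cells last. Of the 35 genes, 0 were higher and 2, Acss2 and Elovl1, were lower, against 1.21% and 1.25% of all genes. The median log2 change was -0.27, also with Mcat at its floor, against -0.13 for all genes. In edgeR 13 of the 35 changes were positive and 22 negative. At an unadjusted p under 0.05 there were 11 of the 35, against 15.3% of all genes, and DESeq2 called 6, against 10.1% of all genes. Beside Acss2 and Elovl1, DESeq2 called Mcat, Fa2h (log2 -2.54, DESeq2 adjusted p = 0.0251), Hacd3 (-1.99, 0.0107) and Sptlc2 (-1.14, 0.0239), all lower in cycling cells and not called in edgeR. Leaving out single sums changed the number of calls, among the 35 genes and also over all genes. The plate as a replicate block gave 1 call, with fewer calls over all genes as well. Scd2, Cers2, Degs1, Tecr and Gal3st1 were among those that passed no test, with changes of -0.32 ± 0.20 (edgeR adjusted p = 0.466), -0.01 ± 0.19 (1.00), 0.12 ± 0.21 (0.841), -0.27 ± 0.14 (0.388) and -0.06 ± 0.23 (0.949).

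Other genes of the pathways were read from lists chosen with earlier results of these data known. Of 16 regulators 13 were tested, and 2 rose from immature to myelinating cells, against 2.58% of all genes. Insig1, which retains the sterol sensor in the endoplasmic reticulum, measured 30.7 and 38.0 CPM in immature and 189.8 and 149.9 CPM in myelinating cells (log2 2.69 ± 0.38, edgeR adjusted p = 0.00409), a call lost with a minimum of 1000 genes per cell (1.85, 0.0610). Mid1ip1, which activates the carboxylase, went from 133 and 159 to 295 and 248 CPM (1.28 ± 0.23, 0.0135), a call lost without either immature sum (0.108 and 0.0560) or the myelinating sum of plate 1 (0.0956), with a Pmp22 border of 20000 CPM (0.0643) and with total-read scaling (0.0531). Insig1 also rose in the first step (2.10 ± 0.37, edgeR adjusted p = 0.0279), but not without either immature sum (0.151 and 0.116) or the intermediate sum of plate 1 (0.115), with a minimum of 1000 genes (0.260) or with a Pmp22 border of 20000 CPM (0.132). Srebf1, whose product turns on lipid synthesis genes, did not pass and measured 37.4 and 29.98 CPM in immature and 19.1 and 21.7 CPM in myelinating cells (-0.34 ± 0.47, 0.859), and was named after its values were seen.

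Among 14 tested genes of further fatty acid synthesis, 1 rose, against 2.58% of all genes. It was Slc25a1, the carrier that exports citrate from mitochondria. It measured 106 and 74.7 CPM in immature, 260.0 and 228 in intermediate, 457 and 437 in myelinating, and 25.5 and 33.1 in cycling cells. The states did not overlap, and the change over both steps was 2.69 ± 0.25 (edgeR adjusted p = 0.000381). Slc25a1 rose also in the first step (1.58 ± 0.24, 0.0132) and was lower in cycling cells (-1.52 ± 0.24, 0.0164). The first-step call was lost without the immature sum of plate 2 (0.0951) or the intermediate sum of plate 1 (0.0523) and with an Ncmap border of 30 CPM (0.0508), and that in cycling cells without the immature sum of plate 1 (0.0810). Of 8 fatty acid carriers tested, 2 rose and 1 fell over both steps, against 2.58% and 2.51% of all genes. Pmp2, a fatty acid binding protein of myelin, went from 24.3 and 27.5 CPM in immature to 3136 and 3518 CPM in myelinating cells (7.39 ± 0.24, edgeR adjusted p = 1.2e-06). Mfsd2a, a carrier of lysolipids, went from 3.73 and 3.89 to 163 and 147 CPM (5.73 ± 0.42, 0.000224). Dbi, which binds acyl-CoA, fell from 3029 and 3517 to 1198 and 1388 CPM (-0.96 ± 0.14, 0.00543). In cycling cells Mfsd2a had 0 reads (edgeR adjusted p = 0.00152 against immature cells), a call lost with thinned cells (0.0516). With a floor of 3 reads over both sums the lower bound on the fold was 42.9, which allows for counting of reads but not for differences between cells.

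Of 27 further sphingolipid genes tested, 1 rose and 1 fell over both steps, near the shares of all genes (2.58% and 2.51%). Samd8, which makes a phosphoethanolamine analogue of sphingomyelin, went from 66.3 and 40.8 to 178 and 125 CPM (1.88 ± 0.34, edgeR adjusted p = 0.0131), lost without the immature sum of plate 2 (0.0988) or the myelinating sum of plate 1 (0.0917). Sphk1, a sphingosine kinase, lies under the 20 CPM minimum for named genes and was named after its values were seen. It measured 13.1 and 14.1 CPM in immature cells and had 0 reads in myelinating cells (edgeR adjusted p = 0.00432). With a floor of 3 reads over both sums the lower bound on the fold was 844, which allows for counting of reads but not for differences between cells. With a Pmp22 border of 20000 CPM the log2 change was -2.66 and the call was lost (edgeR adjusted p = 0.655). None of the 18 genes of fatty acid oxidation passed over both steps, where edgeR gave 3 at an unadjusted p under 0.05, near the 16.3% of all genes, and their median change was 0.37. The medians of the other lists were 0.53 for regulators, 0.02 for further synthesis, 0.74 for carriers and 0.49 for further sphingolipid genes, against 1.27 for the 35 genes. In cycling cells the ceramide kinase Cerk (-4.05 ± 0.69, edgeR adjusted p = 0.0206) and the thiolase Acaa1a (-2.04 ± 0.30, 0.0143) were lower than in immature cells. Cerk lost the call without either immature sum (0.0609 and 0.05004) and Acaa1a without that of plate 2 (0.0598).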

How the data were processed

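Raw read counts per gene and well were deposited by the authors in 1 table of both plates, not normalised. Per the labels the submitters' processing used bcl2fastq, STAR 2.6.1c and featureCounts on GRCm38.p5. The methods of the study name a human build, although the identifiers are of mouse. Of 25700 genes, 36 without a match in GENCODE vM21 held 0.0821% of reads. Coordinates are those of GENCODE vM21, on the same assembly. Smart-Seq2 has no molecular identifiers, and doublets were not called.

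Counts were summed per plate and state and fitted with edgeR 4.0.16 in R 4.3.3 (quasi-likelihood test, TMM, filterByExpr, 4 residual degrees of freedom, common dispersion 0.713), with Benjamini-Hochberg adjustment over 13892 genes at 0.05. The 12 genes that set the states were not tested. Standard errors are those implied by the F statistic. The method was also run on simulated data with a smaller dispersion than that of these data. That run therefore does not show how the method performs at the dispersion found here. CPM values use all reads of a sum. DESeq2 1.42.0 was an alternative. The members, lists and borders of the states were chosen with earlier results of these data known, so p-values carry no claim of independent support. Genes given in full were, per comparison, the 5 members with the largest change past the threshold at a mean of at least 20 CPM and the same direction in both plates, and the member with the highest mean RPKM per role. Shares have exact Clopper-Pearson intervals at 95%.

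Sums of 1 plate share their animals, so plate numbers pair them. Deviations of states from their means correlated with r from -0.0213 to 0.187 over 1972 genes with at least 100 CPM. Alternatives tried were DESeq2, RLE scaling, no filter on low counts, the plate as a replicate block, each sum left out, other minima of genes and borders of states, thinned cells, plate columns 8 and 16 left out, total-read scaling and a fit without cycling cells, the last pair added after the data were seen. Proteins were not analysed here.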

Additional observations from a re-analysis of the deposited data

Results flagged for a closer look

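Reads of the 35 genes were also present in wells that enter no comparison. The 55 wells of plate 1 under the minimum of 1500 genes held 41059 such reads of 6758393, or 6075 CPM, and the 50 wells of plate 2 held 1721 of 520647, or 3306 CPM. In the 8 corner wells 231 of 158513 reads fell on these genes, or 1457 CPM pooled and between 220.4 and 2003 CPM per well, with 0 reads of Scd1. Each count is above the 3 reads that a count of 0 allows. The corners A01, A24, P01 and P24 held 104, 17, 11 and 4 reads of the hepatocyte list in plate 1, and 55, 106, 3 and 0 in plate 2. That list was at 0 CPM in cycling, immature and intermediate sums and at 1.15 and 1.30 CPM in myelinating sums. What the corner wells hold is not stated in the sources used here, and the origin of these reads was not tested. No state was assigned to any well outside the comparisons. Groups of 2 plates are too small for a check of outlying samples.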

How the results depend on the processing

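Of 28 calls of a member in a comparison, 12 held under every alternative run, 16 were lost under at least 1, and 0 changed direction. Of the 147 pairs of a member and a comparison that were not called, 32 were called under at least 1 alternative. Calls rest on 2 plates, and where a sum was left out the remaining one was assumed to vary like the other states. Counts below are of the 35 members (18, 5, 3 and 2 called in the order myelinating against immature, intermediate against immature, myelinating against intermediate and cycling against immature, and 0 for the difference between the steps) and of all genes (708, 271, 107, 342 and 18). The cause of each change below was not tested.

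DESeq2 moved the members to 11, 13, 6 and 2 in the last 4 of these, and all genes to 1502, 924, 630, 1326 and 404. With no filter on low counts the same members numbered 8, 9, 6 and 2, and all genes 1187, 682, 420, 838 and 233. Thinned cells gave 8, 8, 4 and 1 members, with 476 and 207 genes for the steps and 71 for their difference. The fit without cycling cells, chosen after seeing the data, gave 8, 10 and 3 members and 1167, 502, 252 and 95 genes. A Pmp22 border of 20000 CPM left 2 members in the first step and 1 in cycling cells, and one of 45000 CPM gave 30 genes for the difference of the steps. Leaving out columns 8 and 16, and total-read scaling (also chosen later), each left 3 members in the first step.

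Leaving out 1 sum in turn gave 11 to 20, 3 to 9, 2 to 11, 0 to 7 and 0 to 3 members, and 382 to 1295, 129 to 627, 77 to 376, 111 to 1274 and 14 to 152 genes. The plate as a replicate block gave 1 member in cycling cells, 17, 5 and 2 in the other comparisons and 0 for the difference of the steps, with 673, 252, 94, 266 and 17 genes. It ended the calls of Elovl5 (myelinating against immature), Elovl6 (second step) and Acss2 (cycling) and no other call of a member. The median share of cells with a read was 26.7% in immature and 71.0% in myelinating cells, 23.2% and 65.0% from 5 reads on, and 24.7% and 65.7% after thinning. With the length of the longest transcript, 10 of the 10 highest members in myelinating cells were shared. Members at low levels, such as Mcat, Cers6, Degs2 and Ugcg, had standard errors above 1 on the log2 scale. Changes of that size were not detectable for them with these 2 plates. Intermediate cells of plates 1 and 2 held 702 and 11 reads of Mcat and 581 and 22 of Ugcg, but 297 and 300 of Cers6. The cause of the spread was not tested.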
